A study of Mus musculus with 12 samples.

Results

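A set of 8 genes that keep transposable elements silent in the male germline was followed through 12 mouse libraries. The genes are Piwil4, Tdrd9, Mael, Spocd1, Morc1, Tex15, Tex19.1 and its paralog Tex19.2, 8 of the 31685 genes listed in all deposited tables, matched by symbol and, at P7, by Entrez ID. The genes were grouped by function, with the low levels of Tex19.1 and Tdrd9 in Stag3 knockout cells and of Spocd1 at P7 already in view. The knockout against wild-type values and the P7 against E17 values of all 8 are therefore given as description, without p-values.

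The study asked what the cohesin subunit STAG3 does in cultured and in vivo male germ cells. Expression was read by SC3-seq, which counts reads from amplified cDNA near the 3' end of transcripts, in 6 groups of 2 libraries. Cultured germline stem cells (GSCs) are spermatogonial stem cells kept dividing outside the testis. Every GSC library, wild-type (WT) controls included, carries the transgenes Acrosin-EGFP; beta-Actin-EGFP (AAG). These cells were WT, Stag3 KO line 1 (KO1) or Stag3 KO line 2 (KO2), and each knockout is represented by a single line. Testis germ cells with the genotype Vasa-RFPTg/0 were taken before birth, on embryonic days 16 and 17 (E16 and E17), and 7 days after it (P7), and all were male. Vasa is another name of the germ cell gene Ddx4. Sorting and pooling are not described in the sources used here. The labels do not tell whether replicates come from different cultures or animals, and the spread behind each p-value may therefore be technical.

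Male germ cells silence transposons with small RNAs bound to PIWI proteins. In the fetal testis the nuclear PIWI protein encoded by Piwil4 (MIWI2) carries piRNAs to young transposon copies, and SPOCD1 and TEX15 act in the same nuclear route that leads to DNA methylation of those copies. TDRD9 is a helicase that associates with MIWI2, MAEL is a component of the same germ granules, and MORC1 is a chromatin ATPase needed to repress transposons in male germ cells. TEX19.1 is a mammal-specific germ cell protein that restrains retrotransposons and binds the ubiquitin ligase UBR2. Its gene has a rodent paralog, Tex19.2.

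Total counts ranged from 1938644 to 4596607 per library. A level in RPM is a count scaled to 1000000 reads of all genes but the mitochondrial ones, and a count of 0 allows a level of up to 0.748 to 1.73 RPM depending on the library, counting error only. The targeted gene Stag3 had 385 and 420.4 RPM in WT, 137 and 152 in KO2, 295 and 304 in KO1, and 227 to 535 in vivo, so its 3' end was still counted in both knockout lines and does not check the deletion. Listed germ cell markers, Ddx4 and Dazl among them, summed to 1563 to 3144 RPM in every library. Markers of other cell types were not absent in vivo. Endothelial markers summed to 206 to 221 RPM at E16, 147 to 149 at E17, 18.2 to 20.4 at P7 and 5.55 to 11.5 in GSCs. Vwf made up most of the fetal endothelial sums, with 192 and 176 RPM at E16 and 95.9 and 99.95 at E17. Pecam1, Kdr and Tek went the other way, with both E17 libraries above both E16 libraries, and Cdh5 overlapped. Leydig markers summed to 28.8 to 41.9 RPM in the fetal libraries against 0.81 to 9.21 elsewhere. The 12 Sertoli markers found summed to 430.1 to 576 RPM in fetal libraries, 346 to 374 at P7 and 368 to 442 in GSCs. Ctsl made up most of each sum, with 263 to 372 RPM in fetal libraries, 258 to 275 at P7 and 325 to 379 in GSCs. Among the others Clu had 83.8 to 110 RPM and Cst12 24.8 to 43.3 RPM in fetal libraries, against 1.495 to 7.36 and 0 in GSCs. Wt1 had 4.47 to 7.51 RPM in fetal libraries and 3.61 to 16.1 in GSCs, with both WT libraries above the fetal ones. The Sertoli hormone gene Amh had 0 counts in every library. In bulk RNA, fewer cells of a type and less RNA per cell cannot be told apart.

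The upstream sequences of Tex19.1 and Tdrd9, the genes nearest to 0 in knockout cells, are shown first, with those of Mael and Tex19.2 for comparison. RefSeq's promoter table for GRCm38.p6 held 5 of the 8 genes. Capitals mark matches on either strand to 3 short motifs chosen after the sequences had been read: CACGTG (the palindromic E-box), GCGGGA (the core of E2F-type sites) and GCGCATGC (the core of NRF1-type sites). All run 5′ to 3′ on the strand of the gene and end just before the start of the annotated gene. For Tdrd9 that start lies upstream of the transcript start of the promoter table, so 179 bases are shown.
Tex19.1, chr11:121145893-121146142, plus strand: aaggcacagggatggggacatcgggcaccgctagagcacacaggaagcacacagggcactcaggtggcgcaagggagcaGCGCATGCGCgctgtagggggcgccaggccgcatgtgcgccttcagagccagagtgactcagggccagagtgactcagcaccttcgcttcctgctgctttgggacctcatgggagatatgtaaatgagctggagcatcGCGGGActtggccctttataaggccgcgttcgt
Tdrd9, chr12:111971309-111971487, plus strand: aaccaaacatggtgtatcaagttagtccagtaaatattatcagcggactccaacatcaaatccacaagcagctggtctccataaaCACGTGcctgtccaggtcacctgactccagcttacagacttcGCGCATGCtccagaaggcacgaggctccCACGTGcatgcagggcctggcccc
Mael, chr1:166238745-166238994, minus strand: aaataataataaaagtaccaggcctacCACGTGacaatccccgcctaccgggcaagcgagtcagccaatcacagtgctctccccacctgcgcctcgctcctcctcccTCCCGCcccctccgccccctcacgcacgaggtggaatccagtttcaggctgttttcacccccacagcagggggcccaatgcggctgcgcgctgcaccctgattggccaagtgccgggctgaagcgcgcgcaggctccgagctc
Tex19.2, chr11:121118678-121118927, minus strand: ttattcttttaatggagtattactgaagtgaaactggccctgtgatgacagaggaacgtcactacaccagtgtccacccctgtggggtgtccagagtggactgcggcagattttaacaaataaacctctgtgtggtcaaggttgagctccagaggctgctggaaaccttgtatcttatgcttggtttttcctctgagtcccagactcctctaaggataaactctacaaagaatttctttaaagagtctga

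The windows upstream of Tex19.1 and Tdrd9 both held GCGCATGC. In Tex19.1 there were 2 matches, overlapping on opposite strands, at -171 and -169 bp from the transcript start, and Tdrd9 had 1, at -123 bp. This motif occurred in 2.26% of the 32851 promoter windows of 250 bp in the table. CACGTG, found 2 times in the Tdrd9 window and 1 time in that of Mael, occurred in 6.02% of windows, and GCGGGA, found 1 time in Tex19.1 and 1 time in Mael, in 16.9%. The Piwil4 window held none of the 3 motifs, and neither did that of Tex19.2. The paralogs also differed in CG dinucleotides, the sites of DNA methylation. The Tex19.1 window had 15 and the Tex19.2 window 2, against a median of 6 over all windows, with 18 in Mael, 10 in Piwil4 and 8 in Tdrd9. A match is a stretch of letters and not evidence of binding.

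**Figure D1:**
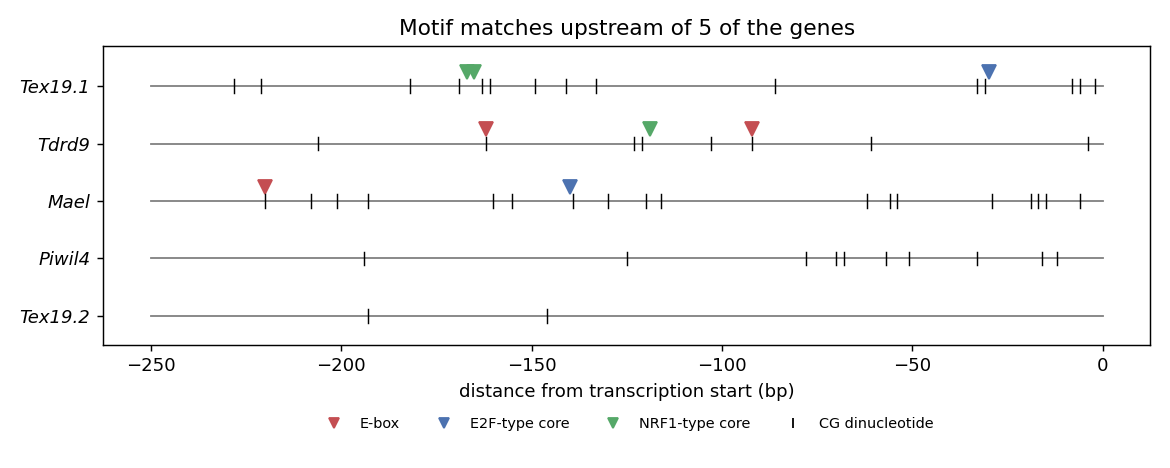
Motif matches (triangles at the middle of each match, coloured by motif) and CG dinucleotides (black ticks) in the 250 bp upstream of the start of 5 genes, with distance from the transcription start in bp on the x axis. Tex19.1 and Tdrd9 carry the NRF1-type core, and Tex19.2 carries no motif and 2 CG dinucleotides.

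The 8 genes lie on 7 chromosomes (GRCm38.p6). Tex19.1 (Entrez ID 73679, chr11:121146143-121148314) and Tex19.2 (Entrez ID 70956, chr11:121116215-121118677) are neighbours, 27.5 kb apart, on opposite strands. Their reads can largely be told apart: of the 1696 windows of 50 bases in the longest Tex19.1 transcript of GENCODE M21, 50 also occur in Tex19.2, and 0 of the last 500 do, where 3' reads fall. Piwil4 (Entrez ID 330890, chr9:14701776-14740672), Tdrd9 (Entrez ID 74691, chr12:111971488-112068854) and Morc1 (Entrez ID 17450, chr16:48431237-48630905) overlap other annotated genes, namely Gm10706, Gm34651 and Gm15586, Rd3l and Gm46381, and Gm41458. Whether the counting used strand is not stated, so reads of overlapping genes could be shared. No other annotated gene overlaps Mael (Entrez ID 98558, chr1:166201385-166238744), Spocd1 (Entrez ID 622480, chr4:129928767-129957115) or Tex15 (Entrez ID 104271, chr8:33516689-33592503).

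Spocd1, Tdrd9 and Piwil4 were abundant in fetal germ cells and low in every cultured library. Spocd1 stood at 914 and 932 RPM at E16, 842 and 851 at E17, 34.2 and 32.8 at P7, and 12.3 and 12.7 in WT GSCs. Its order of levels was E16, E17, P7, WT, KO2, KO1, and each neighbouring pair differed by more than the sum of their SDs. Tdrd9 was read at 831 and 827 RPM at E16, 756 and 771 at E17, 140.4 and 99.2 at P7, and 7.62 and 8.47 in WT GSCs. The order was the same for Tdrd9, with the lines KO2 and KO1 not apart from each other. Piwil4 was at 679.8 and 586 RPM at E16, 419 and 441 at E17, 69.1 and 58.1 at P7, and 27.2 and 30.4 in WT GSCs. For Piwil4 the 3 cultured groups, from 24.97 to 30.4 RPM over their libraries, were not apart from their neighbours in the order.

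Mael and Tex15 kept high levels in all 12 libraries. Mael had 1369.6 and 993 RPM at E16, 1339 and 1377 at E17, 899.7 and 831 at P7 and 567 and 579 in WT GSCs, and E16 and E17 overlapped. Tex15 had 650.5 and 541 RPM at E16, 647 and 624 at E17, 398 and 409 at P7 and 161 and 165 in WT GSCs, again with E16 and E17 not apart. Morc1 was highest at E16, with 315 and 295 RPM, and stood at 169 and 163 at E17, 182 and 174 at P7 and 42.2 and 42.9 in WT GSCs.

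Both Tex19 paralogs had their lowest in vivo levels at E16. Tex19.1 was highest at P7, with 138 and 145 RPM, and had 112 and 108 at E17, 79.5 and 38.0 at E16 and 36.8 and 42.1 in WT GSCs. Its E16 libraries differed widely, and E16 and WT were not apart. Tex19.2 had 71.1 and 74.8 RPM at E17, 64.1 and 63.4 at P7, 38.8 and 21.1 at E16 and 6.81 and 7.97 in WT GSCs.

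**Figure D2:**
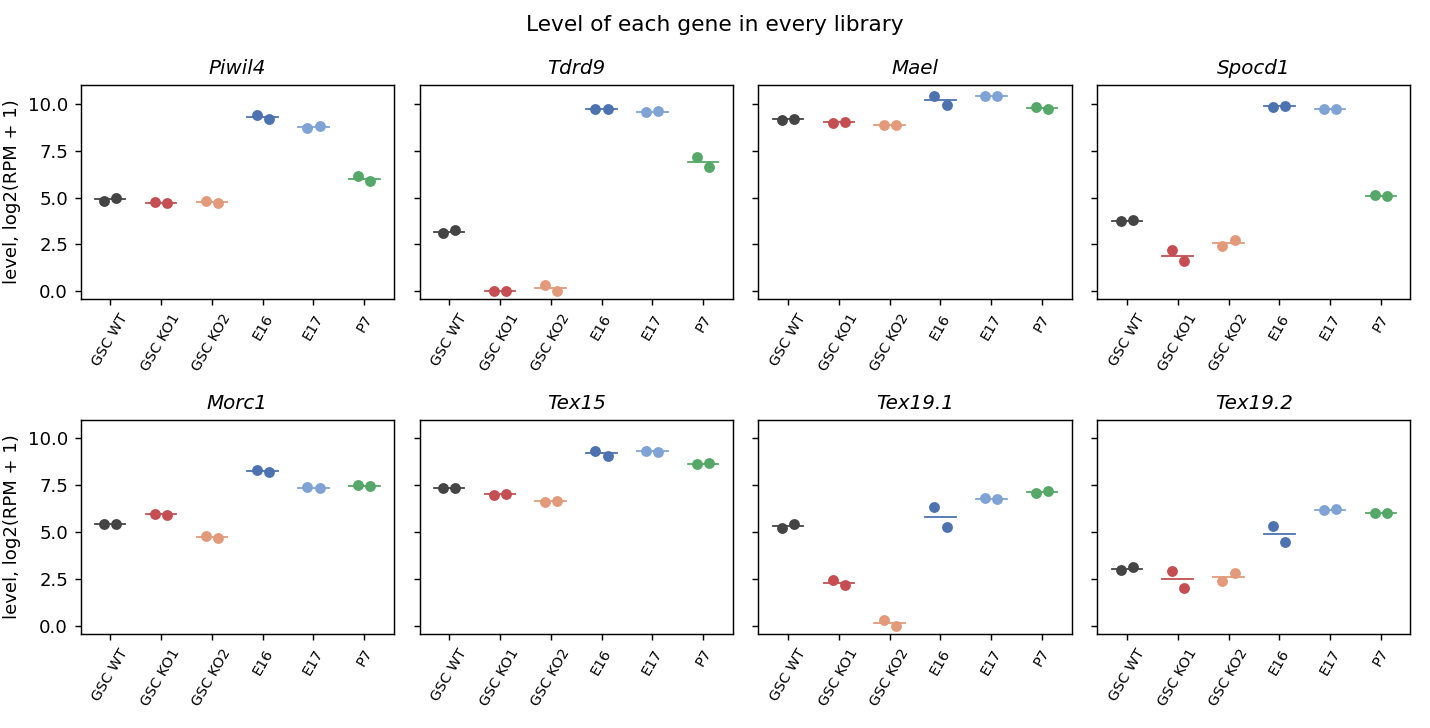
Level of each gene in every library as log2(RPM + 1), 1 panel per gene, with a point per library and a line at the group mean of 2 libraries. Spocd1, Tdrd9 and Piwil4 are high at E16 and E17, while Tex19.1 is highest at P7 and near 0 in KO2.

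The comparison of knockout and WT GSCs asked how these genes stand without intact Stag3. Tex19.1 was at 4.41 and 3.49 RPM in KO1 and 0.27 and 0 in KO2, against 36.8 and 42.1 in WT, and no knockout library overlapped WT. In counts, WT held 304 reads, KO1 25 and KO2 1, a WT to KO1 ratio of levels of 9.91 (95% exact counting interval 6.58 to 15.6) and a WT to KO2 ratio of 289 (51.5 to 11454). Tdrd9 was low already in WT, with 62 reads over both libraries. KO1 had 0 reads of it, at least 8.34-fold lower when each library is set to its floor of 3 counts and the group mean taken, and KO2 had 1, a ratio of 59.0 (95% exact counting interval 10.2 to 2366).

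Spocd1, scarce in culture, stood at 3.53 and 2.09 RPM in KO1 and 4.32 and 5.55 in KO2 against 12.3 and 12.7 in WT. The fitted log2 fold change of Spocd1, with its standard error (SE), was -2.16 ± 0.44 in KO1 and -1.38 ± 0.39 in KO2. Tex15 had 127 and 133 RPM in KO1 and 95.6 and 102 in KO2, all below the WT libraries (-0.38 ± 0.11 and -0.77 ± 0.11). Mael had 506 and 529.6 RPM in KO1 and 459.8 and 463 in KO2, also all below WT, by the smaller differences of -0.20 ± 0.08 and -0.36 ± 0.08.

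Morc1 stood on opposite sides of WT in the 2 lines. It was above both WT libraries in KO1, at 63.0 and 59.4 RPM (0.47 ± 0.16), and below them in KO2, at 26.5 and 24.97 RPM (-0.77 ± 0.18). Piwil4 was at 25.9 and 25.1 RPM in KO1 and 26.0 ± 1.44 (SD, n = 2) in KO2, with log2 fold changes of -0.23 ± 0.21 and -0.20 ± 0.20. Tex19.2 was at 6.77 and 3.14 RPM in KO1 and 4.32 and 6.10 in KO2, with -0.60 ± 0.44 and -0.55 ± 0.43. The higher of its KO1 libraries lay next to the WT library at 6.81 RPM.

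In KO1 1 of the 8 genes was called higher and 4 lower by edgeR, where 13.6% of all 11890 genes tested were called, 6.24% higher and 7.4% lower. In KO2 0 were called higher and 6 lower, where 15.6% were called, 7.19% higher and 8.45% lower. The call of Morc1 in KO1 (1 higher) was lost with ERCC totals, no filter, DESeq2, the 12-library fit and each left-out WT or KO1 library. The split of all calls, 742 higher and 880 lower in KO1 and 855 and 1005 in KO2, became 988 and 705 and 1093 and 808 with RPM totals, and 297 and 849 and 696 and 495 with ERCC totals. All 8 passed the filter on low counts, and Tdrd9 could do so only through its WT libraries. These contrasts helped to choose the genes, so nothing is read from the counts. Marker sums differed too. Those of fibroblasts and feeder cells were 319 to 324 RPM in WT, 298 to 301 in KO1 and 268 to 270 in KO2. Within these Fn1 was above both WT libraries in all 4 knockout libraries, at 178 to 191 RPM against 159 and 165. Col3a1 was below both, at 6.10 to 15.6 RPM against 29.1 and 37.4. Myoid markers summed to 5.98 to 9.53 RPM in WT, 12.2 to 12.7 in KO1 and 3.33 to 4.05 in KO2. Germ cell markers summed to 2845 to 3143 RPM in WT, 2963 to 3144 in KO1 and 2672 to 2678 in KO2. Among them the stem cell genes Nanos3, Sall4 and Zbtb16 were below both WT libraries in all 4 knockout libraries. Others went the other way. Nanos2 had 13.8 and 15.8 RPM in KO2 against 12.5 and 10.2 in WT, but 7.36 and 8.73 in KO1. Dazl and Tex101 were above both WT libraries in KO1. The part of these differences in the result was not tested.

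**Figure D3:**
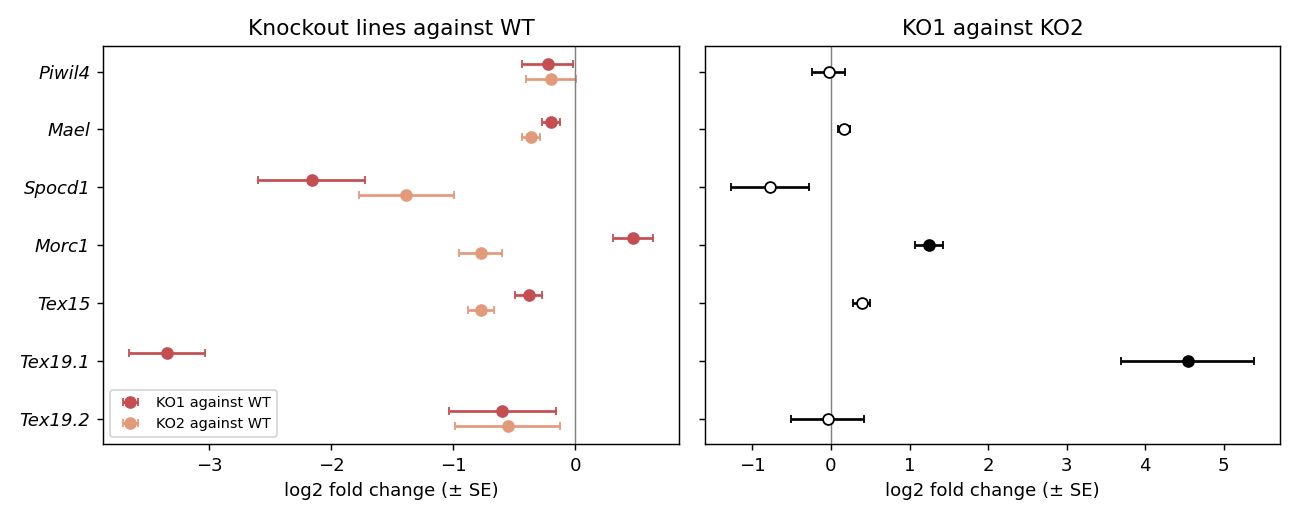
Log2 fold change with its SE for each knockout line against WT (left) and for KO1 against KO2 (right), with filled points on the right past an adjusted p of 0.05. Tdrd9 and the KO2 value of Tex19.1 are left out because they rest on 0 or 1 reads. Morc1 lies on opposite sides of 0 in the 2 lines.

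The direct comparison of the 2 knockout lines was not itself named in the choice of genes and was tested. It uses the same knockout libraries in which low Tex19.1 and Tdrd9 were already in view. The test is therefore not independent of that choice. Tex19.1 and Morc1 were higher in KO1 than in KO2. The level of Tex19.1 was 3.95 ± 0.652 RPM in KO1 and 0.135 ± 0.191 in KO2 (SD, n = 2 each), and the ratio of levels was 29.2 (95% exact counting interval 4.78 to 1198). The adjusted p was 0.000256 (quasi-likelihood F test of edgeR, adjusted over 11890 genes by Benjamini-Hochberg), but DESeq2 gave an adjusted p of 0.269 for the same gene, whose KO2 level rests on 1 read. Morc1 was at 61.2 ± 2.56 RPM in KO1 and 25.7 ± 1.06 in KO2, a log2 fold change of 1.25 ± 0.17 (adjusted p = 9.54e-08, edgeR), with both KO1 libraries above both KO2 libraries.

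Among the other genes Tex15 came nearest, at 0.39 ± 0.11 (edgeR adjusted p = 0.0780, and 0.0345 with the replicate number as a block). Mael (0.16 ± 0.08, adjusted p = 0.481), Spocd1 (-0.78 ± 0.50, 0.655), Piwil4 (-0.03 ± 0.21, 0.989) and Tex19.2 (-0.04 ± 0.47, 0.993) did not pass in the edgeR test. Tdrd9 had 0 and 1 reads in the lines, which allows no comparison. With 2 of 8 called, both higher in KO1, the background was 0.833% of all genes called, 0.547% higher and 0.286% lower (65 and 34 genes, or 27 and 46 with ERCC totals). Leaving out any 1 knockout library kept both calls while the number of all genes called went from 99 to between 41 and 45.

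Between E16 and E17, when fetal male germ cells are arrested and rebuild DNA methylation, Morc1 and Piwil4 fell, a direction that reversed only with ERCC spike-in totals among the scalings tried (1.80 and 2.11). The step was tested, although it shares the E17 libraries with the P7 against E17 contrast that helped to choose the genes. Morc1 went from 305 ± 14.1 to 166 ± 4.25 RPM (SD, n = 2 each), a log2 fold change of -1.21 ± 0.13 (adjusted p = 5.32e-05, edgeR, over 14776 genes). Piwil4 went from 633 ± 66.0 to 429.8 ± 15.3 RPM, a log2 fold change of -0.89 ± 0.12 (adjusted p = 0.000435, edgeR). In both genes the 2 libraries of E17 lay below those of E16. Both calls held with RPM totals in place of TMM (edgeR's scaling by trimmed means), at -0.88 and -0.56.

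The other calls of this step were less stable. Spocd1 passed at -0.46 ± 0.11 (adjusted p = 0.0192, edgeR), but at -0.12 (0.410) with RPM totals, with mean levels of 923 and 846 RPM. Its call was also lost without either E17 library. Tex19.2 rose from 29.9 ± 12.5 to 73.0 ± 2.65 RPM, at 0.99 ± 0.24 (adjusted p = 0.0200, edgeR), but at 0.64 (0.0569) without E16 replicate 2, and its call was lost without either E17 library too. Tex19.1 moved in the same direction, passing with the replicate number as a block but not in the main fit. Its main value was 0.61 ± 0.23 (adjusted p = 0.129, edgeR). That value was 0.20 (0.553) without E16 replicate 2 and 1.14 (1.53e-07) without E16 replicate 1.

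Tdrd9 (-0.46 ± 0.14, edgeR adjusted p = 0.0562), Tex15 (-0.24 ± 0.11, 0.224) and Mael (-0.13 ± 0.12, 0.586) did not pass. Mael and Tex15 took the opposite sign with RPM totals, at 0.20 and 0.0944, and both passed without E16 replicate 2, at -0.29 and -0.31. Tdrd9 passed in the same direction in 6 other settings, among them DESeq2 (adjusted p = 0.0252). In all, 1 of the 8 was called higher and 3 lower, where 6.6% of all genes were called, 1.64% higher and 4.96% lower. The number called higher was 2 with RPM totals, no filter, the replicate number as a block or the 12-library fit. RPM totals moved the median of all genes from 0.01 to 0.34 and the split of all calls from 242 higher and 733 lower to 1296 and 246. With ERCC totals, which made up a smaller part of the E17 libraries, the median was 3.02 and all 8 genes were called higher. Erythroid markers summed to 143 RPM in E16 replicate 1, 273 in E16 replicate 2 and 93.0 to 109 at E17. Fibroblast markers summed to 524 to 557 RPM at E16 and 809.6 to 847 at E17, Sertoli markers to 430.1 to 465 and 532 to 576, and myoid markers to 85.9 to 95.9 and 105 to 116. Germ cell markers stood at 1563 to 1651 and 1809.6 to 1891 RPM. Their part in the result was not tested.

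**Figure D4:**
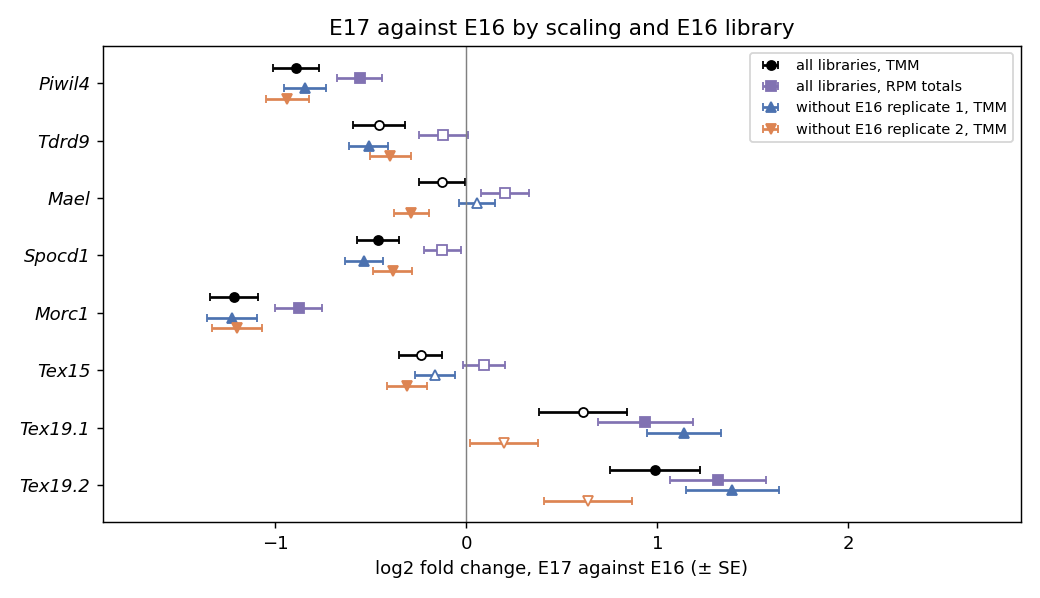
Log2 fold change of E17 against E16 with its SE for each gene in the main fit, with RPM totals, and without each E16 library, filled where the adjusted p is under 0.05. Morc1 and Piwil4 stay below 0 in these 4 fits, and Tex19.1 and Tex19.2 depend on which E16 library is kept.

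From E17 to P7, a step that also entered the choice of genes, the fetal genes were lower by different amounts. Spocd1 had a log2 fold change of -4.50 ± 0.14, from 842 and 851 to 34.2 and 32.8 RPM. Piwil4 (-2.60 ± 0.13) and Tdrd9 (-2.52 ± 0.15) were lower by similar amounts, and the 2 P7 libraries of Tdrd9 differed most, at 140.4 and 99.2 RPM. Tex15 (-0.50 ± 0.11) and Mael (-0.49 ± 0.12) were modestly lower, with every P7 library below every E17 library.

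Morc1 (0.26 ± 0.13) and Tex19.1 (0.51 ± 0.21) stood higher at P7 and Tex19.2 (-0.04 ± 0.22) nearly level. The higher call of Tex19.1 was lost with RLE factors, RPM totals, DESeq2 and each left-out library. It reversed to -4.17 with ERCC totals, with which all 8 genes were called lower, Morc1 among them. ERCC totals moved the median of all genes from -0.13 to -4.81 and the split of all calls from 4458 higher and 5582 lower to 37 and 14486. Of the 8 genes 1 was called higher and 5 lower, where 67.9% of all genes were called, 30.2% higher and 37.8% lower, and the median of the 8 was -0.50. The P7 tables use another gene list than the E16 and E17 tables, so this step and the table format cannot be told apart.

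The last comparisons set in vivo germ cells against WT GSCs and were tested, although they share libraries with the contrasts that helped to choose the genes. All 8 genes were higher in fetal germ cells, taking the mean of E16 and E17, where 74.2% of all genes were called 41.9% higher and 32.3% lower. The largest differences were those of Tdrd9 (log2 fold change 6.48 ± 0.17), Spocd1 (6.01 ± 0.14) and Piwil4 (4.04 ± 0.13). Tex19.2 (2.49 ± 0.26), Morc1 (2.26 ± 0.12), Tex15 (1.78 ± 0.09) and Mael (1.00 ± 0.09) followed, and Tex19.1 was nearest to its WT level (0.87 ± 0.18). Adjusted p-values ran from 2.75e-29 for Spocd1 to 5.85e-05 for Tex19.1 (edgeR quasi-likelihood test, all 12 libraries). The median was 2.38 for the 8 genes and 0.23 for all genes.

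All 8 were also higher at P7 than in WT GSCs, where 31% of all genes were called, 16% higher and 15% lower. The P7 tables use another gene list than the GSC tables. In vivo and GSC libraries, fetal ones included, also carry different transgenes. These differences and that between germ cells in vivo and in culture cannot be told apart. Tdrd9 again had the largest difference, 3.75 ± 0.18, followed by Tex19.2 (2.97 ± 0.27), Morc1 (1.93 ± 0.13) and Tex19.1 (1.71 ± 0.19). Spocd1 (1.29 ± 0.18), Tex15 (1.17 ± 0.10), Piwil4 (1.01 ± 0.15) and Mael (0.46 ± 0.10) were closer to culture. Adjusted p-values ran from 5.17e-18 for Tdrd9 to 0.000335 for Mael (edgeR). With ERCC totals, which moved the median of all genes from 0.03 to -0.42, 6 were called higher, while Piwil4 (0.44) and Mael (-0.09) were not. With ERCC totals the split of all calls went from 2538 higher and 2371 lower to 909 and 4709 at P7, and from 6637 and 5113 to 14505 and 158 in fetal cells. With RPM totals it was 3202 and 1756 at P7. Besides the endothelial, Leydig and Sertoli sums given above, fibroblast markers averaged 540.2 RPM at E16, 828 at E17 and 422 at P7 against 321 in WT. Myoid markers averaged 90.9, 111 and 16.7 against 7.75, and erythroid markers 208, 101 and 47.5 against 0.261. Germ cell markers averaged 1607 and 1850.3 RPM at E16 and E17, below the 2994 of both P7 and WT. Dazl made up most of that gap, with 441 to 461 RPM at E16 and 596 to 637 at E17. It had 1439 and 1476 at P7 and 1537 and 1786 in WT. Nanos2, Nanos3, Sall4 and Zbtb16 were also lower in every fetal library. Ddx4 overlapped WT. Tex101 was above P7 in every fetal library and above WT at E17, and Dnd1 was above both P7 and WT at E16. The part of these differences in the result was not tested.

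Wider parts of the pathway were read from 3 lists. Of 20 listed genes of cytoplasmic piRNA production, 18 were tested in GSCs. Against WT, 6 of 18 were lower and 1 higher in KO1 and 11 lower and 0 higher in KO2 (medians -0.28 and -0.46, all genes 0.01 and 0.01), where 7.4% and 8.45% of all genes were lower and 6.24% and 7.19% higher. Piwil2, the cytoplasmic PIWI gene, was at -0.55 ± 0.09 in KO1 (adjusted p = 5.74e-06, edgeR) and -0.88 ± 0.10 in KO2 (1.67e-12). Between the lines 2 were higher in KO1 and 0 lower (median 0.21, all genes 0.00), beside 0.833% of all genes called. These were Ddx4, the germ cell helicase, at 0.38 ± 0.08 (adjusted p = 0.00158, edgeR), and Btbd18, a regulator of piRNA precursor transcription, at 1.09 ± 0.30 (0.0479). From E16 to E17, 2 of 20 were called lower and 0 higher (median -0.26, all genes 0.01), beside 4.96% and 1.64% of all genes. These were Mov10l1, the helicase that feeds precursors to the pathway, at -0.72 ± 0.12 (adjusted p = 0.00163, edgeR), and Fkbp6, a co-chaperone, at -0.44 ± 0.13 (0.0486). In RPM the levels of Fkbp6 overlapped, at 384 and 327 at E16 and 327 and 330 at E17. Mov10l1 was at 411 and 386 RPM at E16 and 300 and 312 at E17. All 3 lists were read in the main TMM fit only, and RPM totals moved the median of all genes in this step to 0.34. Against WT GSCs 11 of 20 were higher and 4 lower in fetal cells (median 0.32, all genes 0.23), a called share of 75% beside 74.2% of all genes, with the lowest adjusted p for Piwil2 at 1.41 ± 0.09 and, in the other direction, for the Tudor gene Tdrkh at -1.35 ± 0.11. At P7 8 were higher and 1, Tdrkh, was lower (-0.86 ± 0.12), with a median of 0.32 (all genes 0.03), beside 16% and 15% of all genes.

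The DNA methylation genes included Dnmt3l, the cofactor of de novo methylation. It was at 939.6 ± 77.9 RPM at E16, 772 ± 4.47 at E17, 8.56 ± 1.88 at P7 and 1.74 ± 1.397 in WT GSCs. From E16 to E17 it fell by 0.62 ± 0.13 on the log2 scale (adjusted p = 0.00742, edgeR). It was the only 1 of 7 tested to pass (0 rose, median 0.02), beside 4.96% of all genes lower and 1.64% higher. Against WT GSCs 4 of 8 were higher and 2 lower in fetal cells (median 1.28, all genes 0.23), a called share of 75% beside 74.2% of all genes. Dnmt3a, a de novo methyltransferase, was at 2.50 ± 0.12, and Uhrf1, which maintains methylation through replication, at -5.27 ± 0.21. At P7 3 were higher and 2 lower, beside 16% and 15% of all genes. From E17 to P7, 3 of 7 rose and 2 fell, a called share of 71.4% beside 67.9% of all genes, Dnmt3l with a log2 fold change of -6.32 ± 0.18 (adjusted p = 4.22e-12, edgeR). In the knockouts 1 of 5 tested was called in KO1 and 2 in KO2, shares of 20% and 40% beside 13.6% and 15.6% of all genes. Dnmt3b, another de novo methyltransferase, was lower than in WT in both lines, at -0.73 ± 0.17 in KO1 and -0.53 ± 0.16 in KO2. Uhrf1 was called higher in KO2, at 0.32 ± 0.11, and did not pass in KO1, at 0.25 ± 0.11. Between the lines the lowest edgeR adjusted p of the 5 tested was 0.298, that of Tet3.

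Repressive chromatin partners were mostly lower in fetal cells than in WT GSCs, 15 of 19 against 2 higher (median -1.20, all genes 0.23) where 32.3% of all genes were lower and 41.9% higher, among them the HP1 gene Cbx3 (-2.27 ± 0.11) and the remodeller gene Hells (-2.63 ± 0.14). The H3K9 methyltransferase gene Ehmt2 was higher (1.81 ± 0.10). At P7 3 were higher and 3 lower than in WT (median 0.13, all genes 0.03). That is a called share of 31.6% beside 31% of all genes, 16% higher and 15% lower. From E17 to P7 13 of 19 rose and 2 fell (median 1.10, all genes -0.13), where 30.2% of all genes were higher and 37.8% lower. In the knockouts 3 of 19 were called in each line, a share of 15.8% beside 13.6% of all genes in KO1 and 15.6% in KO2. The HP1 gene Cbx5 was higher in both (0.54 ± 0.11 and 0.63 ± 0.11) and Ehmt2 lower (-0.50 ± 0.10 and -0.66 ± 0.10). Between the knockout lines the lowest edgeR adjusted p of the 19 was 0.189 (Cbx3), and between E16 and E17 it was 0.0662 (Ehmt2). Ubr2, whose protein binds TEX19.1, was at 57.2 ± 2.31 RPM for WT (SD, n = 2), 55.4 ± 7.31 for KO1 and 59.3 ± 4.28 for KO2. Its knockout against WT log2 fold change was -0.04 ± 0.13. Spin1, whose protein binds SPOCD1, was at 234 ± 17.2 RPM for WT, 215 ± 8.33 for KO1 and 202 ± 18.6 for KO2.

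**Figure D5:**
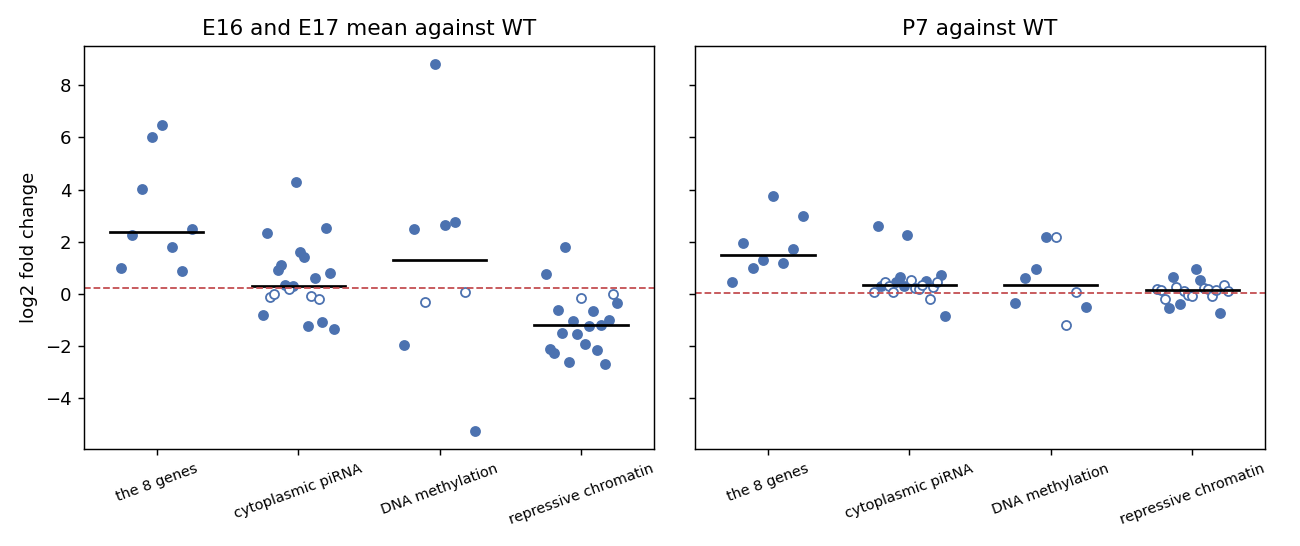
Log2 fold change of E16 and E17 (left) and P7 (right) against WT GSCs for the 8 genes and 3 wider lists, filled where the adjusted p is under 0.05, with a black line at the list median and a dashed red line at the median of all genes. The medians of the 8 genes are 2.38 and 1.498.

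The genes whose levels ran most alike over the 12 libraries were found by Pearson's r of log2(RPM + 1) among 9479 genes that reached a group mean of 20 RPM. The libraries are 2 per group, so r mainly reflects 6 group means. For Tex19.1 they were Maco1 (r = 0.975), Sohlh1 (0.964) and Akap17b (0.964). Sohlh1, a transcription factor of spermatogonial differentiation, had group means of 58.9 RPM (WT), 6.43 (KO1) and 1.22 (KO2), and at 259, 322 and 173 at E16, E17 and P7. For Tdrd9 they were Pou5f1 (0.998), Pou6f1 (0.995) and Ccdc175 (0.994). Pou5f1, the pluripotency factor OCT4, had 115 RPM at E16, 91.5 at E17, 27.02 at P7 and 5.34 in WT GSCs.

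For Spocd1 they were Trp53inp2 (0.997), Phf13 (0.996) and Capn10 (0.995), for Piwil4 Nme8 (0.998), Mat1a (0.994) and Cnppd1 (0.994), and for Mael Cobl (0.991), Dock11 (0.989) and B3gnt7 (0.989). Nme8 had 205 RPM at E16, 146 at E17, 4.33 at P7 and 0.125 in WT GSCs. Within the 8 genes, r was 0.985 between Spocd1 and Piwil4 and between Tdrd9 and Tex15, and the lowest value computed was 0.611, between Tex19.1 and Piwil4.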

How the data were processed

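SC3-seq libraries of 6 groups, 2 per group, were used. The submitters' processing notes name GRCm38.p6, TopHat2 2.1.1, Salmon 1.4.0, cutadapt 1.18 and HTSeq 0.9.1, without roles. Whole read counts per gene, as the authors deposited them, entered all tests. RPM were computed from them with the total of non-mitochondrial genes.

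Tables were joined by Entrez ID. The GSC, E16 and E17 tables hold 35652 genes and those of P7 34896 genes. Blank counts were treated as missing, and ERCC, other spike-in and transgene rows (0.198% to 5.86% of counts) were left out. For WT the replicate numbers follow the titles, which are opposite to the file names.

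edgeR 4.0.16 (quasi-likelihood, TMM, filterByExpr with a minimum count of 10, adjusted p under 0.05) was fitted to 6 GSC, 6 in vivo or all 12 libraries. It was tested on simulated data with 200 genes drawn for change. DESeq2 1.42.0, other scalings, no filter, a replicate block, 12-library fits and leaving out libraries were tried. RPM totals as a scaling were added after the data were seen. Named genes were the 8 members, genes among the 3 lowest adjusted p per direction and comparison in 3 lists, and the 3 most similar genes for 5 members. Ubr2, Tet3 and marker genes were named outside this rule, after their values were seen. Genes and lists were chosen with earlier results of these data known.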

Additional observations from a re-analysis of the deposited data

Results flagged for a closer look

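Both results named here differ between the 2 Stag3 knockout lines in the edgeR test of KO1 against KO2. The log2 fold change of Morc1 was 1.25, and its values lay on opposite sides of WT in the lines. Its call against WT in KO1 was lost in 8 of 11 other settings. The log2 fold change of Tex19.1 was 4.54, a fitted value that rests on 1 read in KO2.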

How the results depend on the processing

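The limits of these data are 2 libraries per group, levels at or under the floor for Tdrd9 in both knockout lines and for Tex19.1 in KO2, and spike-in shares that differ between stages. All 8 genes stayed higher in fetal cells than in WT under each of the alternatives. Except where a value or the smaller number of samples shows it, the cause of a change was not tested.

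For KO1 against KO2, 99 genes were called, 39 in the 12-library fit, 32 with DESeq2 (1 of the 8 genes, which was Morc1) and 41 to 45 without 1 library. Without 1 library Piwil4 ran from -0.0808 to 0.0353 and Tex19.2 from -0.73 to 0.38, and Mael was -0.0028 with ERCC totals. For the mean of both lines against WT, 2286 genes were called, 1421 in the 12-library fit, 886 with DESeq2 and 1447 with ERCC totals. For KO1 the 1622 calls became 858 in the 12-library fit, 549 with DESeq2 (3 of the 8) and 859 to 1779 without 1 library (3 to 5 of the 8). For KO2 the 1860 calls became 1008, 667 with DESeq2, 1191 with ERCC totals and 905 to 1869 without 1 library.

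For E17 against E16, 975 genes were called, 1763 in the 12-library fit, 1542 with RPM totals, 14508 with ERCC totals and 232 to 3645 without 1 library (2 to 6 of the 8). With ERCC totals all 8 were called higher, Piwil4 at 2.11, Tdrd9 at 2.56, Mael at 2.86, Spocd1 at 2.56, Morc1 at 1.80 and Tex15 at 2.76 having reversed. With RPM totals Mael was 0.20 and Tex15 0.0944, and without 1 library Mael ran from -0.29 to 0.0569. For P7 against E17 with ERCC totals all 8 were called lower, Tex19.1 at -4.17 and Morc1 having reversed. For P7 against WT, 3200 to 3684 genes were called without 1 library, and Mael was -0.0921 with ERCC totals.

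Replicate numbers did not pair the libraries (correlations of deviations from -0.014 to 0.059). With the replicate block, KO1 against KO2 called 136 genes, Tex15 among them, and E17 against E16 called 1314, with Tdrd9 and Tex19.1 added among the 8.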
